A study of Mus musculus with 24 samples.

Results

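The potassium channel genes described here are the protein-coding genes of the expression table whose mouse symbol starts with Kcn. The table held 94 such genes, and 90 of its 21833 genes remained after Kcnk2, Kcnk3, Kcnk9 and Kcnj5 had been left out. RNA-seq had been made from adrenal glands and tumors of mice in which transgenes at the Rosa26 locus were switched on by an iCRE under the Dbh promoter, which is active in sympathetic and adrenal medullary cells. AG were adrenal glands of mice without CRE (n = 3), and AGM were tumor-free adrenal glands of mice with CRE and 1 MYCN transgene allele (labelled MYCN +/-, n = 5). TI were neuroblastomas of CRE-positive mice with an IGF2BP1 transgene (n = 8, of which 7 were labelled +/+ and 1 +/-), and TIM were neuroblastomas of CRE-positive mice labelled IMP1/MYCN (n = 8), IMP1 being another name of IGF2BP1. The lines had been backcrossed to C57Bl6/N, and the age of each animal was not used here. The 8 TI libraries hold both zygosities because the columns of the table could not be matched to single animals. Controls differed from AGM and tumors in CRE as well as in the transgenes. The authors' genotyping found no wildtype Rosa26 allele in TIM mice, so these carried 1 IGF2BP1 allele, fewer than TI labelled +/+. TIM thus differed from most TI in IGF2BP1 alleles as well as in MYCN.

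Potassium channels let potassium leave or enter a cell and thereby set its resting voltage and shape its action potentials. Voltage-gated (Kv) channels assemble from 4 pore-forming alpha subunits, and silent modifier subunits, beta subunits and calcium-sensing KChIP proteins alter how they open or reach the membrane. KCNQ channels carry the M-current that dampens repetitive firing of sympathetic neurons, calcium-activated channels follow calcium entry, inward rectifiers and two-pore domain channels hold the resting voltage, and chromaffin cells of the adrenal medulla use several of these to control catecholamine release.

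Between 12334076 and 23683176 reads per library lay outside the 126 genes that exceeded 1000 FPKM (fragments per kilobase of gene length, scaled to the size of the library) in some library. Over all genes, reads recovered from FPKM and gene length came to 17434796 to 17893013 per AG library and 12468968 to 21353172 per TI library. They came to 116740738 to 1170004708 in AGM and 58530450 to 888626365 in TIM, so the 126 genes held most of the reads there. By the label batch run, AG and 6 TI samples were of run 1 and the other TI samples of runs 2 and 3. AGM were of run 2 and TIM of runs 2 and 3, so neither AGM nor TIM shared a run with AG. For these comparisons run and group cannot be told apart. The summed FPKM of 6 adrenal cortex markers lay between 638 and 658 in AG and between 3585 and 4795 in AGM, but between 0.0173 and 9.97 in TI and between 0.278 and 9.28 in TIM. The sum of 5 neuronal markers (Stmn2, Tubb3, Gap43, Elavl4 and Syp) lay between 2.73 and 3.43 in AG and between 11.2 and 20.1 in AGM, against 72.6 to 299.8 in TI and 166 to 277 in TIM, and all 5 passed the test in both tumor groups against AG. The sum of 6 chromaffin and sympathoblast markers lay between 128 and 186 FPKM in AG and between 1446 and 2496 in AGM, and from 107 to 1648 in TI and 139 to 4639 in TIM. That of 4 adipocyte markers lay between 45.8 and 199 in AG and between 177 and 980 in AGM, but reached at most 0.195 in TI and 11.8 in TIM. The exocrine pancreas genes Cpa1, Cela2a, Prss2 and Pnlip summed to between 0.00398 and 105751 FPKM in TIM (median 3721), and to at most 0.113 in any other library, with all 4 at 0 in AG. In bulk tissue, fewer cells of a type and less RNA per cell cannot be told apart, and the part of these shifts in cell type in the differences below was not tested.

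Most potassium channel mRNAs were scarce, apart from 6 members described at the end that were near 0 in AG and TI and high in AGM or TIM. Of the 90 genes, 59 exceeded 1 FPKM in no library. The number of members with a mean of at least 1 FPKM was 4 in AG, 10 in AGM, 8 in TI and 13 in TIM, and the number with a mean of at least 0.1 FPKM was 28, 48, 43 and 54. Of the members, 23 reached 1 FPKM in at least 3 libraries and entered limma, a linear model fitted over 10171 genes on log2(FPKM + 1). A second fit with a filter of 0.1 FPKM held 15238 genes and 68 members, which left 22 members below both filters. A member that passed only through the group where it is high had to differ, so the counts below describe tested members and not the family.

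The tumors held more members above AG than below it. In TI vs AG, 9 of 23 tested members were higher and 4 lower at a false discovery rate (FDR) below 0.05, against 24.6% of all tested genes higher and 27.7% lower. In TIM vs AG, 13 were higher and 3 lower, against 22.5% and 28.5% of all genes. With limma-voom on recovered reads 8 were higher and 3 lower, and no share of all genes is given for that method. The median difference of the tested members was 0.07 in TI vs AG and 0.65 in TIM vs AG on the log2(FPKM + 1) scale, and -0.002 and -0.005 over all genes. Both comparisons share the 3 AG libraries.

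The glands with the MYCN transgene were set against AG by the same test. In AGM vs AG, 5 of 23 members were higher and 0 lower by limma, against 14.6% and 14.0% of all genes. At an unadjusted p under 0.05 by limma the counts were 7 and 0, for which no share of all genes is given. In TIM vs AGM, 9 were higher and 7 lower against 31.9% and 33.4%, which lies near the background. In TIM vs TI, 7 were higher and 1 lower against 10.0% and 12.9%. The latter split changed with the processing. With FPKM rescaled to the reads outside the 126 extreme genes 7 were higher and 3 lower, and by limma-voom on recovered reads 3 and 3. The splits of AGM vs AG became 6 to 1 and 4 to 1 under the same alternatives, and that of TIM vs AGM became 10 to 5 with rescaled FPKM. Shares of all genes are not given for these alternatives, so their counts have no background beside them.

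Of the 23 tested members, 4 had at most 10 reads in every AG and TI library and are described at the end. Without them, 9 of 19 were higher and 4 lower in TI vs AG, 11 and 3 in TIM vs AG, 4 and 0 in AGM vs AG, 4 and 1 in TIM vs TI, and 8 and 6 in TIM vs AGM. In the fit with the lower filter, 18 of 68 members were higher and 10 lower in TI vs AG (21.0% and 25.6% of all genes), and 27 and 9 in TIM vs AG (19.1% and 26.8%). There, 11 were higher and 1 lower in AGM vs AG (13.3% and 13.0%), 14 and 2 in TIM vs TI (8.45% and 11.8%), and 22 and 17 in TIM vs AGM (27.3% and 32.5%). Among the 45 members that only the lower filter held, 9 were higher and 6 lower in TI vs AG, and 16 and 6 in TIM vs AG. There, 6 and 1 passed in AGM vs AG, 7 and 1 in TIM vs TI, and 13 and 10 in TIM vs AGM. The shares higher were 20%, 35.6%, 13.3%, 15.6% and 28.9% in this order. Those of TI vs AG, AGM vs AG and TIM vs AGM lie near the shares of all genes. The plot of differences by member and comparison shows 16 of the 19.

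**Figure D1:**
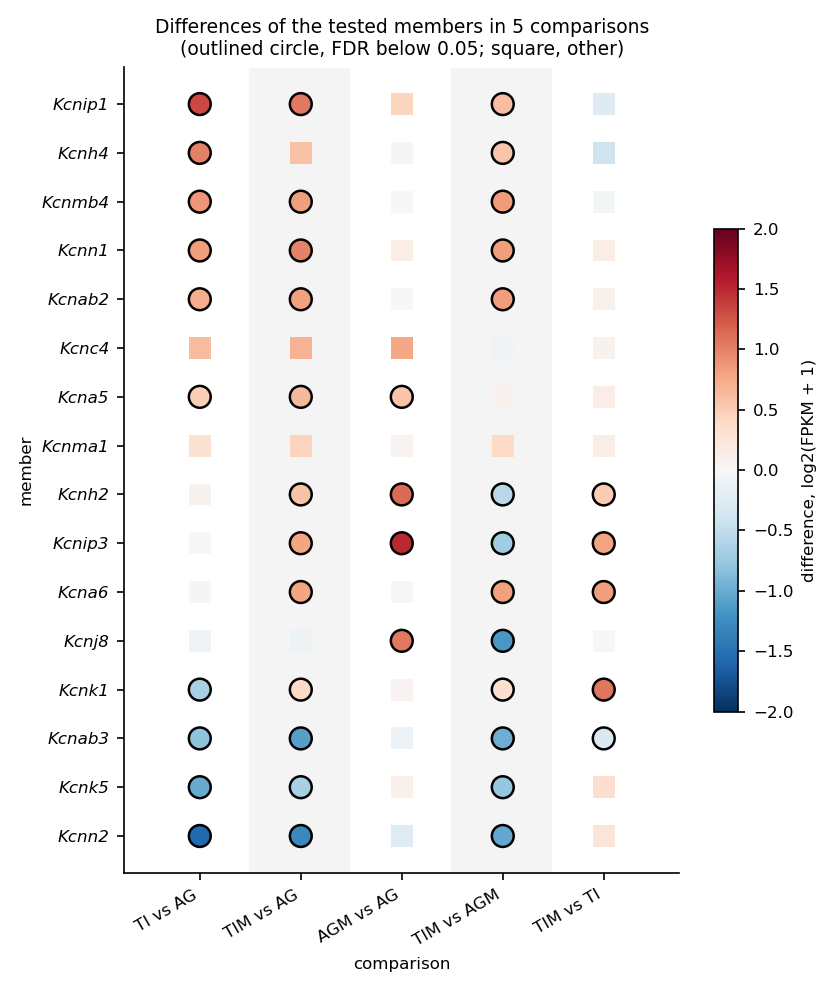
Differences of 16 tested potassium channel genes (vertical axis) in 5 comparisons (horizontal axis), as colour on the log2(FPKM + 1) scale from limma; outlined circles passed an FDR of 0.05 and squares did not. Kcnip1 at the top and Kcnn2 at the bottom have the widest differences shown in TI vs AG, 1.33 and -1.56, and Kcnip3, Kcnh2 and Kcnj8 are high in AGM vs AG.

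The 10 subfamilies differed in where they were expressed. Summed over the 17 Kv alpha genes of the Shaker, Shab, Shaw and Shal groups, the level was 2.01 ± 0.387 FPKM in AG (SD, n = 3), 4.42 ± 0.414 in AGM (n = 5), 6.25 ± 1.63 in TI (n = 8) and 9.52 ± 4.93 in TIM (n = 8). The 5 KCNQ genes summed to 1.14 ± 0.146, 1.68 ± 0.194, 4.78 ± 1.31 and 3.65 ± 1.18 FPKM in the same order. The 4 BK beta subunit genes summed to 0.556 ± 0.0511, 0.268 ± 0.077, 1.80 ± 0.745 and 1.26 ± 0.474 FPKM. No tumor library fell to the AG level in the BK beta sum, whereas 1 TIM library at 1.24 FPKM lay within the AG range of 0.993 to 1.28 in the KCNQ sum. In the Kv alpha sum the tumors lay above AG, except that 1 TIM library at 1.96 FPKM lay within the AG range of 1.59 to 2.34 once the Kv alpha genes near 0 in AG and TI were left out.

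Other subfamilies were higher in AGM than in AG or did not separate the groups. The 14 inward rectifier genes summed to 1.69 ± 0.216 FPKM in AG, 4.40 ± 0.482 in AGM, 1.96 ± 1.15 in TI and 2.52 ± 0.484 in TIM. The 7 Kv beta and KChIP genes summed to 2.39 ± 0.286, 5.76 ± 1.07, 4.24 ± 1.27 and 4.68 ± 0.773 FPKM, and the 8 EAG, ERG and ELK genes to 1.69 ± 0.187, 5.15 ± 0.410, 3.59 ± 0.723 and 5.15 ± 2.07 FPKM. In all of these, every AGM library exceeded every AG library, and with rescaled FPKM only the Kv beta and KChIP sum overlapped (lowest AGM library 16.5, highest AG library 16.8). AGM did not stand above the tumors in all of them, since the rescaled means of the Kv beta and KChIP sum were 25.9 in AGM, 25.7 in TI and 25.6 in TIM, and those of the EAG, ERG and ELK sum 22.9, 21.6 and 27.8. Single genes made up much of these subfamily sums in AGM. Kcnh2 was at 4.30 to 5.22 FPKM there, Kcnj8 at 1.64 to 2.76 and Kcnip3 at 2.06 to 2.97. The 8 calcium- and sodium-activated channel genes summed to 3.89 ± 0.195, 3.64 ± 0.325, 2.8 ± 1.01 and 4.04 ± 2.53 FPKM, with overlap between AG and both tumor groups.

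Genes near 0 in AG and TI made up most of the remaining sums in some libraries. These were Kcng3 in the Kv modifier sum of every AGM library and Kcne1l in the KCNE sum of AGM and most TIM libraries. In the two-pore domain sum they were Kcnk7 or Kcnk15, in some but not all AGM and TIM libraries. Without the members of at most 10 reads in every AG and TI library, the two-pore domain genes summed to 2.15 ± 0.545 FPKM in AG, 2.75 ± 0.316 in AGM, 1.11 ± 0.366 in TI and 2.68 ± 0.985 in TIM. The modifiers summed to 0.636 ± 0.108, 0.930 ± 0.167, 0.680 ± 0.304 and 0.582 ± 0.341 FPKM and the KCNE genes with Kcnrg to 0.529 ± 0.0847, 0.466 ± 0.0979, 0.590 ± 0.271 and 0.389 ± 0.229 FPKM. The two-pore domain genes were thus lowest in TI, where the highest library (1.54 FPKM) met the lowest AG library (1.53 FPKM), and the modifier and KCNE sums overlapped between AG and the tumor groups.

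**Figure D2:**
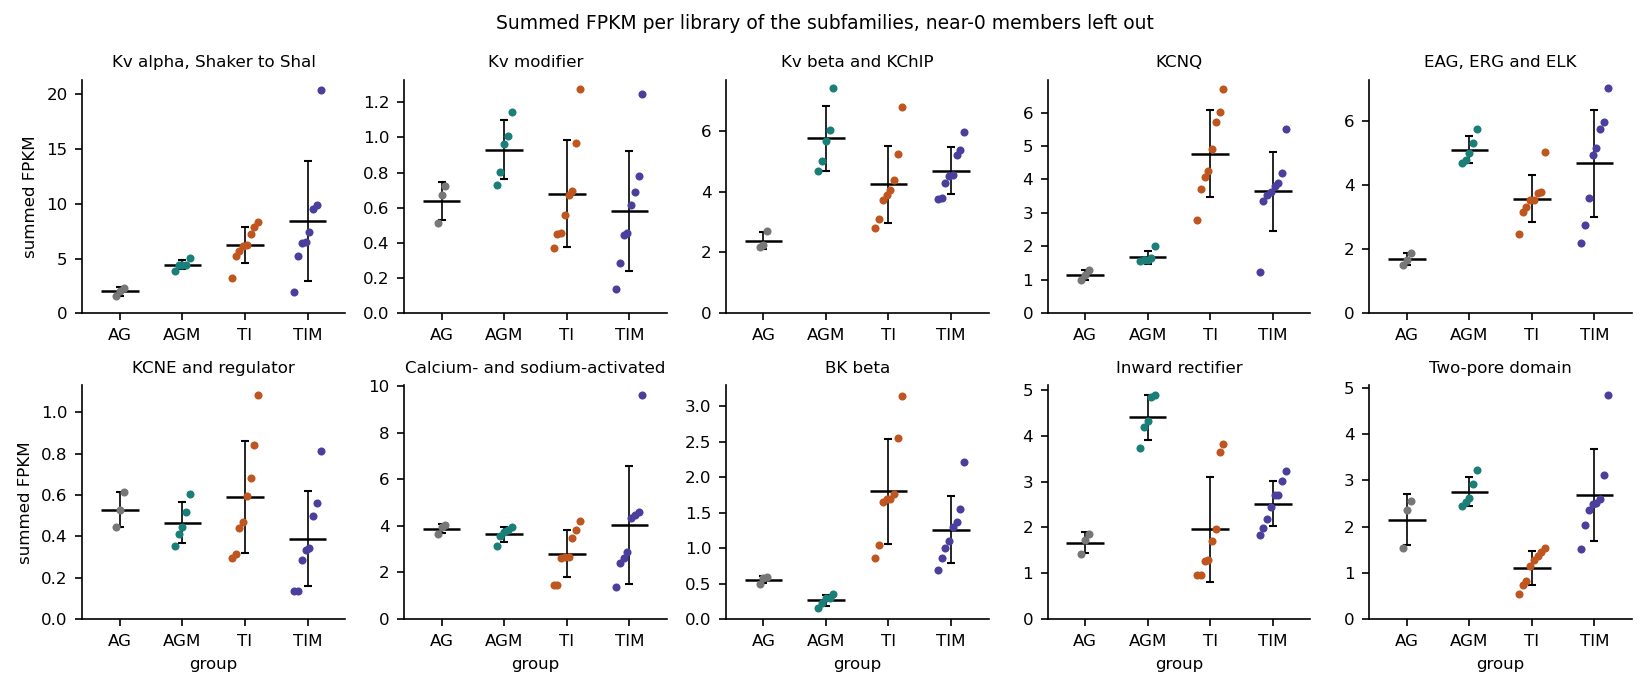
Summed FPKM (vertical axes, linear) per library in AG, AGM, TI and TIM for 10 potassium channel subfamilies, without the 17 members of at most 10 reads in every AG and TI library; points are libraries, lines means and bars SD. The KCNQ and BK beta sums are higher in both tumor groups, the inward rectifier sum is highest in AGM and the two-pore domain sum lowest in TI.

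Among the Kv alpha genes, 3 of 6 tested members rose in TI vs AG, Kcna5 among them, against 24.6% of all genes. In TIM vs AG 3 rose, with Kcna5 and Kcna6 among them, against 22.5%. By limma 0 of the 6 fell in either, against 27.7% and 28.5% of all genes. By limma-voom and at an unadjusted p under 0.05 by limma 0 fell as well, and no shares of all genes are given for these. In the fit with the lower filter, 6 of 12 rose in TI vs AG, 7 in TIM vs AG and 7 in TIM vs AGM, against 21.0%, 19.1% and 27.3% of all genes.

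Kcna5, a Shaker channel of cardiac and smooth muscle, was at 0.0749, 0.110 and 0.161 FPKM in AG and at 0.616, 0.647, 0.654, 0.657 and 0.689 in AGM. It ranged from 0.205 to 1.35 FPKM in TI (median 0.456) and from 0.322 to 1.23 in TIM (median 0.758). All libraries of the other groups lay above AG, and the limma FDR was 0.0265 for AGM, 0.0193 for TI and 0.0033 for TIM. By limma-voom at the 1 FPKM filter, Kcna5 was not called in AGM vs AG. In the fit with the lower filter the call in AGM was lost when any of 3 libraries was left out (FDR up to 0.0929) and that in TI when either of 2 was (FDR up to 0.0753). Mural and smooth muscle markers (Acta2, Myh11, Rgs5 and Pdgfrb) summed to between 4.57 and 5.05 FPKM in AG and between 8.65 and 12.3 in AGM. The sum reached 71.9 in TI and 27.1 in TIM. By limma 0 of the 3 tested markers passed in AGM vs AG. In TI vs AG and in TIM vs AG 2 rose, against 24.6% and 22.5% of all genes. The part of these markers in the Kcna5 difference was not tested.

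Kcnc4, a Shaw channel with fast inactivation (ENSMUSG00000027895, chr3:107345603-107367781, minus strand), had the highest mean of the Kv alpha genes. It was at 0.483, 0.867 and 0.960 FPKM in AG and at 1.5, 1.91, 2.01, 2.19 and 2.59 in AGM. It ranged from 0.312 to 4.47 FPKM in TI (median 1.98) and from 0.117 to 9.48 in TIM (median 2.02). Each tumor group thus spanned the AG level on both sides, and Kcnc4 passed the test in none of the 5 comparisons by limma (FDR 0.318 in AGM vs AG), although the AGM and AG libraries did not overlap. In a fit of AG and AGM alone the FDR of that comparison was 0.00158.

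Kcna6, a Shaker channel of axons (chr6:126685292-126717644, minus strand), was close to 0 outside TIM. It was at 0.0455, 0.0479 and 0.0713 FPKM in AG, at 0.0238 to 0.0544 in AGM, and reached at most 0.0804 in TI. In TIM it ranged from 0 to 3.65 FPKM with a median of 0.560, so that 1 TIM library lay below AG and AGM, level with the lowest TI library, and the other TIM libraries lay above all other groups. Kcna6 reached 1 FPKM in TIM libraries alone and so passed the filter only through the group where it is high. The limma results for Kcna6 in TIM therefore partly reflect that selection and lend no support of their own. The difference in TIM vs TI was 0.84 ± 0.22 (limma FDR 0.010) and did not pass by limma-voom (FDR 0.148 and, with the lower filter, 0.0831). Leaving out any of the 3 AG libraries or either of 2 TIM libraries ended the call in TIM vs AG (FDR 0.0315 with all libraries and up to 0.0830 without 1).

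Less abundant Kv alpha genes, chosen after their values were seen, reached FDR thresholds only in the fit with the lower filter. Kcnc1, a Shaw channel of fast-spiking neurons, was at 0.0256 to 0.0398 FPKM in AG and at 0.243 to 0.802 in TI, with no overlap, and the difference was 0.48 ± 0.10 (limma FDR 0.000579). Kcnd2, the pore of the A-type current of neurons, ranged from 0.114 to 0.143 FPKM in AG and from 0.113 to 1.21 in TIM (median 0.580), with a limma FDR of 0.0216 in TIM vs AG that was lost when any of 3 libraries was left out (FDR up to 0.0668).

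The cytosolic Kv beta subunits diverged from each other. Kcnab2 (ENSMUSG00000028931, chr4:152474250-152562651, minus strand), the main Kv beta subunit of neurons, was at 0.302, 0.331 and 0.435 FPKM in AG and at 0.324, 0.326, 0.337, 0.362 and 0.374 in AGM. It ranged from 0.436 to 1.74 FPKM in TI (median 1.49) and from 0.648 to 2.20 in TIM (median 1.61). Both tumor groups lay above both gland groups, the lowest TI library only just, by 0.72 ± 0.19 in TI vs AG (limma FDR 0.00231), 0.82 ± 0.19 in TIM vs AG (FDR 0.000790) and 0.83 ± 0.16 in TIM vs AGM (FDR 8.48e-05).

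Kcnab3, a further Kv beta subunit (chr11:69217066-69223870, plus strand), went the other way. It was at 1.35, 1.52 and 1.75 FPKM in AG and at 0.996, 1.14, 1.42, 1.5 and 1.65 in AGM. It ranged from 0.241 to 0.760 FPKM in TI (median 0.441) and from 0.124 to 0.305 in TIM (median 0.166). All tumors lay below all glands, and TIM and TI overlapped only at their edges. Kcnab3 fell by 0.81 in TI vs AG (SE 0.10; limma FDR 2.67e-07), by 1.1 in TIM vs AG (SE 0.10; FDR 1.96e-09) and by 0.29 in TIM vs TI (SE 0.07; FDR 0.00606).

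**Figure D3:**
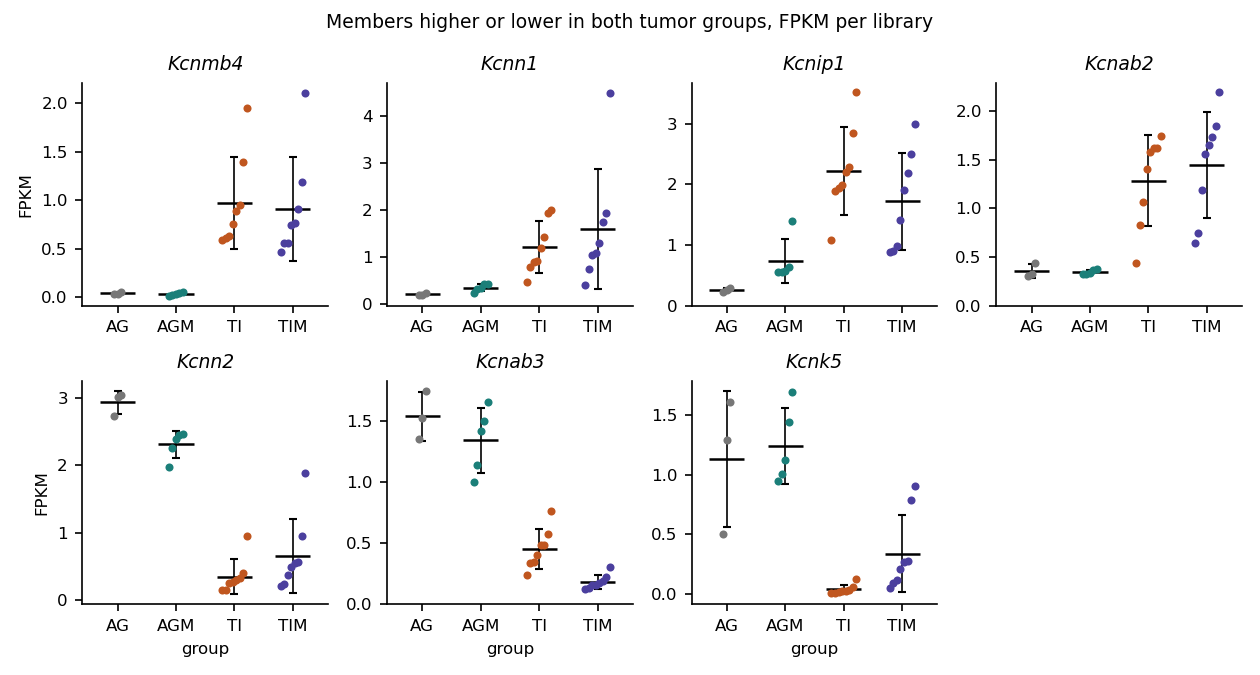
FPKM per library (vertical axes, linear) of 7 members in AG, AGM, TI and TIM; points are libraries, lines means and bars SD. Kcnmb4, Kcnn1, Kcnip1 and Kcnab2 are higher, and Kcnn2, Kcnab3 and Kcnk5 lower, in both tumor groups than in AG by limma at an FDR below 0.05.

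The KChIP genes parted by group as well. KChIPs are calcium-binding subunits of Shal channels, and Kcnip3 also encodes the transcriptional repressor DREAM. Kcnip1 (ENSMUSG00000053519, chr11:33576285-33943152, minus strand) was at 0.223, 0.252 and 0.288 FPKM in AG and at 0.553, 0.555, 0.575, 0.633 and 1.39 in AGM. It ranged from 1.08 to 3.51 FPKM in TI (median 2.09) and from 0.879 to 2.99 in TIM (median 1.65). All tumors lay above AG, by 1.33 ± 0.22 in TI (limma FDR 2.76e-05) and 1.06 ± 0.22 in TIM (FDR 0.000355), and 1 AGM library lay within the tumors. The smooth muscle gene Kcnmb1 lies inside the span of Kcnip1 on the opposite strand and reached at most 0.228 FPKM.

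Kcnip3 was high in AGM (chr2:127298418-127364014, minus strand). It was at 0.134, 0.192 and 0.207 FPKM in AG and at 2.06, 2.14, 2.28, 2.34 and 2.97 in AGM. It ranged from 0.0253 to 0.912 FPKM in TI (median 0.0783) and from 0.210 to 2.61 in TIM (median 1.04). AGM lay above every AG and TI library, and TIM above AG. The difference was 1.51 ± 0.23 in AGM vs AG (limma FDR 3.62e-05), 0.79 ± 0.22 in TIM vs AG (FDR 0.00417) and 0.80 ± 0.16 in TIM vs TI (FDR 0.00144), and Kcnip3 was lower in TIM than in AGM, with a difference of -0.72 ± 0.18 (FDR 0.00163). The last call was lost with rescaled FPKM (FDR 0.0531).

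Kcnip4, chosen after its values were seen and tested only with the lower filter, had a like order. It was at 0.0157, 0.0180 and 0.0182 FPKM in AG and at 0.155, 0.634, 0.810, 1.02 and 1.16 in AGM. It reached at most 0.0523 FPKM in TI and 0.293 in TIM. AGM lay above AG and TI without overlap, by 0.75 ± 0.12 over AG (limma FDR 7.24e-05), and the difference in TIM vs AGM was -0.69 ± 0.10 (FDR 2.53e-06).

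KCNQ genes were described one by one in the fit with the lower filter, and those named were chosen after their values were seen. Kcnq3, a subunit of the M-channel of neurons, was at 0.0626, 0.0881 and 0.0890 FPKM in AG and at 0.0577, 0.0754, 0.0872, 0.0950 and 0.142 in AGM. It ranged from 0.0871 to 0.635 FPKM in TI (median 0.368) and from 0.00687 to 0.355 in TIM (median 0.160), so that the lowest library of each tumor group lay within or below AG. It rose in TI vs AG by 0.33 ± 0.10 (limma FDR 0.00968), and TIM vs AG gave 0.12 ± 0.10 (FDR 0.332). Kcnq5, a further neuronal subunit, was at 0.0206, 0.0222 and 0.0331 FPKM in AG, at 0.0178 to 0.0385 in AGM, from 0.0435 to 0.364 in TI (median 0.117) and from 0.0307 to 0.315 in TIM (median 0.220). It rose in TIM vs AG by 0.22 ± 0.07 (FDR 0.0142) and in TIM vs AGM by 0.21 ± 0.06 (FDR 0.00470), while 1 TIM library lay within AG.

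Kcnq1, an epithelial and cardiac subunit chosen after its values were seen, was at 0.546, 0.671 and 0.677 FPKM in AG and at 0.472, 0.527, 0.612, 0.621 and 0.633 in AGM. It ranged from 0.0634 to 0.436 FPKM in TI (median 0.0851) and from 0 to 0.203 in TIM (median 0.0849). All tumors lay below all glands, with differences of -0.53 ± 0.07 (limma FDR 2.35e-06) in TI vs AG and -0.58 ± 0.07 (FDR 5.38e-07) in TIM vs AG.

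Kcne4, a KCNE subunit that inhibits Kcnq1 channels and was chosen after its values were seen, was at 0.397, 0.428 and 0.486 FPKM in AG and at 0.296, 0.297, 0.311, 0.316 and 0.450 in AGM. It ranged from 0.0155 to 0.474 FPKM in TI (median 0.127) and from 0.0211 to 0.185 in TIM (median 0.0879). TIM lay below both gland groups, and 1 TI library lay within AG. With the lower filter the difference was -0.31 ± 0.07 in TI vs AG (limma FDR 0.00155) and -0.40 ± 0.07 in TIM vs AG (FDR 0.000117).

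In the EAG, ERG and ELK group, Kcnh2 and Kcnh4 passed the 1 FPKM filter. Kcnh2 (ENSMUSG00000038319, chr5:24524567-24556762, minus strand), the ERG channel of cardiac repolarization, was at 1.42, 1.56 and 1.78 FPKM in AG and at 4.30, 4.31, 4.67, 4.89 and 5.22 in AGM. It ranged from 1.29 to 2.14 FPKM in TI (median 1.70) and from 0.926 to 5.53 in TIM (median 3.18). AGM lay above AG and TI, and TIM spread over both. The difference in AGM vs AG was 1.13 ± 0.26 (limma FDR 0.00226). The calls in TIM vs AG (FDR 0.0489) and TIM vs TI (FDR 0.0435) were lost when any of 21 and any of 18 of the 24 libraries was left out, with FDR up to 0.145 and 0.0938.

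Kcnh4, an ELK channel of brain (chr11:100631202-100650837, minus strand), was at 0.0214, 0.0312 and 0.0424 FPKM in AG and at 0.0351, 0.0514, 0.0536, 0.0593 and 0.0606 in AGM. It ranged from 0.0696 to 3.11 FPKM in TI (median 1.16) and from 0.0937 to 1.33 in TIM (median 0.573). All tumors lay above all glands. The difference was 1.01 ± 0.27 in TI vs AG (limma FDR 0.00355), which limma-voom did not call (FDR 0.0974), and 0.56 ± 0.23 in TIM vs AGM (FDR 0.0368), which was lost on leaving out any of the 5 AGM libraries or any of 3 TIM libraries (FDR up to 0.0724). Kcnh8, the sister ELK gene chosen after its values were seen, was at most 0.00205 FPKM in AG and 0.0108 in AGM, and at least 0.143 in TI and 0.0338 in TIM. With the lower filter it rose in TI vs AG by 0.37 ± 0.08 (FDR 0.000586) and in TIM vs AG by 0.26 ± 0.08 (FDR 0.00969).

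The small-conductance calcium-activated (SK) channels Kcnn1 and Kcnn2 moved in opposite directions. SK channels open on calcium alone and carry an afterhyperpolarization of neurons and chromaffin cells. Kcnn2 (ENSMUSG00000054477) was at 2.74, 3.01 and 3.05 FPKM in AG and at 1.98, 2.26, 2.40, 2.46 and 2.46 in AGM. It ranged from 0.148 to 0.952 FPKM in TI (median 0.289) and from 0.213 to 1.89 in TIM (median 0.525). All tumors lay below all glands. Kcnn2 fell by 1.56 in TI vs AG (SE 0.19; limma FDR 2.8e-07), by 1.29 in TIM vs AG (SE 0.19; FDR 4.09e-06) and by 1.04 in TIM vs AGM (SE 0.16; FDR 5.19e-06), the widest fall among the members in TI vs AG.

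Kcnn1 (ENSMUSG00000002908, chr8:71294693-71316409, minus strand) was at 0.189, 0.191 and 0.242 FPKM in AG and at 0.240, 0.312, 0.334, 0.414 and 0.417 in AGM. It ranged from 0.473 to 2.01 FPKM in TI (median 1.06) and from 0.401 to 4.50 in TIM (median 1.19). TI lay above all glands, and the lowest TIM library lay within AGM. Kcnn1 rose by 0.83 ± 0.27 in TI vs AG (limma FDR 0.0117), 0.98 ± 0.27 in TIM vs AG (FDR 0.00368) and 0.83 ± 0.22 in TIM vs AGM (FDR 0.00271). Mean Kcnn2 exceeded mean Kcnn1 in AG and AGM, whereas median Kcnn1 exceeded median Kcnn2 in TI and TIM, all on the length-normalised FPKM scale.

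Large-conductance (BK) channels consist of the pore Kcnma1 and beta subunits that set its calcium sensitivity. Kcnma1 was at 0.323, 0.332 and 0.369 FPKM in AG, ranged from 0.154 to 1.16 in TI (median 0.668) and from 0.168 to 1.63 in TIM (median 0.957), and passed the test in none of the 5 comparisons by limma (FDR 0.262 in TI vs AG). Its neuronal beta subunit Kcnmb4 (ENSMUSG00000054934, chr10:116253766-116309848, minus strand) was at 0.0343, 0.0393 and 0.0510 FPKM in AG and at 0.0180, 0.0208, 0.0297, 0.0412 and 0.0524 in AGM. It ranged from 0.594 to 1.95 FPKM in TI (median 0.822) and from 0.463 to 2.11 in TIM (median 0.755). All tumors lay far above all glands, by 0.89 ± 0.18 in TI vs AG (limma FDR 0.000311), 0.84 ± 0.18 in TIM vs AG (FDR 0.000593) and 0.85 ± 0.16 in TIM vs AGM (FDR 5.97e-05).

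Kcnmb2, an inactivating BK beta subunit of chromaffin cells chosen after its values were seen, differed between the tumor groups instead. It was at 0.428, 0.527 and 0.530 FPKM in AG and at 0.0802, 0.146, 0.197, 0.225 and 0.251 in AGM. It ranged from 0.239 to 1.08 FPKM in TI (median 0.831) and from 0.0808 to 0.749 in TIM (median 0.145). AGM lay below AG, although the difference did not pass (FDR 0.122 by limma with the lower filter), and the difference in TIM vs TI was -0.46 ± 0.11 (FDR 0.00615), with overlap.

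Kcnj8, the Kir6.1 pore of the vascular ATP-sensitive potassium channel (ENSMUSG00000030247, chr6:142510563-142517830, minus strand), was the 1 inward rectifier above the 1 FPKM filter. It was at 0.623, 0.625 and 0.625 FPKM in AG and at 1.64, 2.34, 2.64, 2.69 and 2.76 in AGM. It ranged from 0.152 to 2.03 FPKM in TI (median 0.338) and from 0.164 to 1.39 in TIM (median 0.459). AGM lay above AG and TIM without overlap, and the tumors spread to both sides of AG. The difference was 1.06 ± 0.24 in AGM vs AG (limma FDR 0.00246) and -1.16 ± 0.19 in TIM vs AGM (FDR 1.72e-05). The summed mural and smooth muscle markers given above did not overlap between AG and AGM either, although 0 of the 3 tested markers passed in AGM vs AG by limma. Their part in the Kcnj8 difference was not tested.

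Kcnj11, the Kir6.2 pore of the neuroendocrine ATP-sensitive channel, was chosen after its values were seen. It was at 0.0253, 0.0284 and 0.0384 FPKM in AG and at 0.0691, 0.0800, 0.136, 0.169 and 0.178 in AGM, ranged from 0.0774 to 0.361 in TI (median 0.150) and from 0.104 to 0.598 in TIM (median 0.305). All other libraries lay above AG. With the lower filter the difference was 0.37 ± 0.09 in TIM vs AG (limma FDR 0.000999) and 0.18 ± 0.09 in TI vs AG (FDR 0.0972), and its sulfonylurea receptor Abcc8 gave 0.31 ± 0.08 in TIM vs AG (FDR 0.00191).

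**Figure D4:**
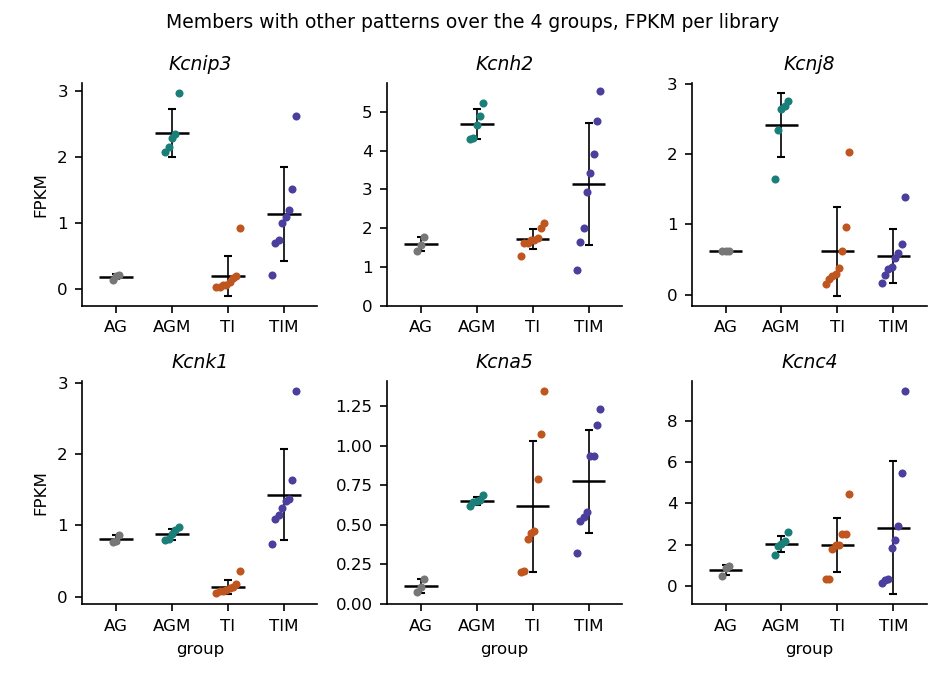
FPKM per library (vertical axes, linear) of Kcnip3, Kcnh2, Kcnj8, Kcnk1, Kcna5 and Kcnc4 in AG, AGM, TI and TIM; points are libraries, lines means and bars SD. Kcnip3, Kcnh2 and Kcnj8 are higher in every AGM than in every AG library, and Kcnk1 is lower in every TI library than in every other library.

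The two-pore domain channels carry background potassium currents, and 3 of the 11 genes were tested at 1 FPKM. Kcnk1, or TWIK-1 (ENSMUSG00000033998, chr8:126721842-126757440, plus strand), was at 0.767, 0.780 and 0.867 FPKM in AG and at 0.791, 0.803, 0.879, 0.931 and 0.977 in AGM. It ranged from 0.0524 to 0.358 FPKM in TI (median 0.104) and from 0.738 to 2.89 in TIM (median 1.29). Every TI library lay below every other library. Kcnk1 fell by 0.67 in TI vs AG (SE 0.14, limma FDR 0.000441). It rose by 1.07 in TIM vs TI (SE 0.11, FDR 8.65e-07), with no overlap between the TIM and TI libraries. The difference in TIM vs AG was 0.39 ± 0.14 (FDR 0.0258) and was lost on leaving out any of the 3 AG libraries (FDR up to 0.0810) and by limma-voom.

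Kcnk5, the acid-sensitive TASK-2 (ENSMUSG00000023243, chr14:20190125-20231900, minus strand), was at 0.501, 1.29 and 1.61 FPKM in AG and at 0.944, 1.01, 1.12, 1.44 and 1.70 in AGM. It ranged from 0.00393 to 0.121 FPKM in TI (median 0.0238) and from 0.0495 to 0.901 in TIM (median 0.237). TI lay below all glands, and 2 TIM libraries lay within AG. Kcnk5 fell by 1.01 in TI vs AG (SE 0.17; limma FDR 2.48e-05), by 0.67 in TIM vs AG (SE 0.17; FDR 0.00184) and by 0.77 in TIM vs AGM (SE 0.14; FDR 6.02e-05). Kcnk10, the mechanosensitive TREK-2, was chosen after its values were seen and was at most 0.00106 FPKM in AG and 0.0136 in AGM. It was at least 0.0389 FPKM in TI (median 0.594) and 0.0665 in TIM (median 0.198), and with the lower filter it rose by 0.60 ± 0.14 in TI vs AG (FDR 0.00131).

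The Kv modifiers do not form channels alone. Of the 10 genes, Kcng3 passed the 1 FPKM filter and 7 the lower one. Kcng4, chosen after its values were seen, was at 0.237, 0.376 and 0.482 FPKM in AG and at 0.1, 0.110, 0.113, 0.132 and 0.134 in AGM. It ranged from 0.00241 to 0.0723 FPKM in TI (median 0.0321) and from 0 to 0.113 in TIM (median 0.00902). All other libraries lay below AG, with differences of -0.28 ± 0.04 in AGM (limma FDR 2.59e-05), -0.39 ± 0.04 in TI (FDR 2.45e-08) and -0.41 ± 0.04 in TIM (FDR 1.28e-08).

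Of the 90 members, 17 had at most 10 reads in every AG and TI library, and 6 of them exceeded 1 FPKM in AGM or TIM. Kcng3 (ENSMUSG00000045053, chr17:83892840-83939455, minus strand) had at most 1 read in every AG and TI library and was at 257, 267, 269, 273 and 572 FPKM in AGM, but at most at 0.0357 in TIM. Kcnk7 (ENSMUSG00000024936, chr19:5754395-5757137, plus strand) was listed at 0 in AG, at 0, 0, 0.00763, 602 and 1955 FPKM in AGM, and from 0 to 1544 in TIM (median 336). It was the 1 member above 1000 FPKM, and libraries of the same group lay at or near 0 and at 256 FPKM or more. No fold or FDR is given for either gene, because each passed the filter only through the groups where it is high and the fitted values depend on the pseudocount.

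The remaining members of this kind showed the same split within groups. Kcne1l, a KCNE subunit gene named Kcne5 in GENCODE (chrX:141087748-141089290, minus strand), was at 1.07, 1.24, 1.78, 1.81 and 2.29 FPKM in AGM and from 0 to 12 in TIM (median 7), and at most at 0.0107 in AG and TI. Kcna3, a Shaker channel of lymphocytes, was at 0 in 4 TIM libraries and from 1.48 to 2.77 FPKM in the others. Kcnk15 was at 45.9 and 62.8 FPKM in 2 TIM libraries and at most at 0.00616 in every other library, and Kcnh5 reached 2.21 FPKM in 1 TIM library. Kcna3, Kcnk15 and Kcnh5 were chosen after their values were seen, and the part of the authors' batch correction in these values was not tested.

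**Figure D5:**
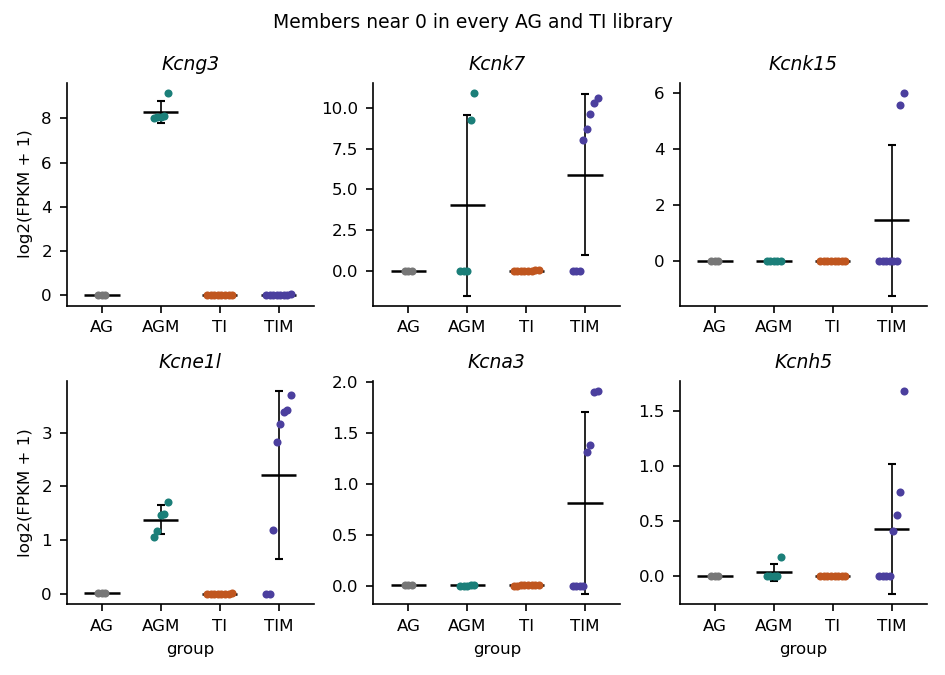
Level per library as log2(FPKM + 1) (vertical axes) of 6 members with at most 10 reads in every AG and TI library; points are libraries, lines means and bars SD. Kcng3 is high in all 5 AGM libraries and near 0 in TIM, whereas Kcnk7, Kcnk15, Kcne1l, Kcna3 and Kcnh5 are high in some TIM libraries and near 0 in others.

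Whether TIM differed from AGM as TI did from AG was asked by the difference of TIM vs AGM and TI vs AG. These groups differ in MYCN, IGF2BP1 alleles, CRE and run, which cannot be told apart here. By limma, 1 of 23 tested members passed upward and 3 downward, against 3.85% and 6.15% of all genes, and with the lower filter 2 and 5 of 68 did (Kcng4 upward and Kcnip4 and Kcng2 downward among them), against 4.10% and 5.71%. Kcnk1 gave 1.01 ± 0.19 (FDR 0.000599), with a fall in TI vs AG and a rise of 0.34 ± 0.12 in TIM vs AGM. Kcnj8 gave -1.08 ± 0.30 (FDR 0.0204). Kcng3 is counted among the members that passed downward, but it entered the test through AGM alone, so its value is not given.

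Auxiliary proteins of potassium channels whose symbols do not start with Kcn were read beside the members. Of 15 listed genes, 6 passed the 1 FPKM filter. Of these, 5 rose in TI vs AG, in TIM vs AG and in TIM vs AGM (Cntn2, Dpp6, Cntnap2, Lingo1 and Dlg4), while Amigo1 did not pass. The shares of all genes that rose were 24.6%, 22.5% and 31.9%. Mean Cntn2, Cntnap2 and Lingo1 were at most 0.138 FPKM in AG and 0.269 in AGM. These genes thus entered through the tumors, so the filter favoured their rise and the count cannot be weighed against those shares. With the lower filter, 6 of 11 rose and 1 fell in TI vs AG, 7 and 1 in TIM vs AG, and 8 and 0 in TIM vs AGM. There, 21.0%, 19.1% and 27.3% of all genes rose. Dpp6, which speeds up Shal channels, was at 0.141 ± 0.0289 FPKM in AG, 0.763 ± 0.199 in AGM, 1.14 ± 0.373 in TI and 2.98 ± 1.40 in TIM, and differed by 0.83 ± 0.17 in TIM vs TI (limma FDR 0.00144). The scaffold Dlg4, or PSD-95, rose from 0.395 ± 0.0403 FPKM in AG to 5.31 ± 1.54 in TI and 6.80 ± 3.66 in TIM, by 2.14 ± 0.31 (FDR 5.05e-06) and 2.33 ± 0.31 (FDR 1.56e-06). Cntn2 and Cntnap2, which cluster Kv channels beside nodes of Ranvier, differed in TI vs AG by 0.75 ± 0.17 (FDR 0.00066) and 0.60 ± 0.23 (FDR 0.0355). Lrrc55, an auxiliary subunit of BK channels tested only with the lower filter, was at 0.862 ± 0.124 FPKM in AG and 0.0315 ± 0.0321 in TI and fell by 0.85 (SE 0.08; FDR 5.34e-09).

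Members that lie side by side in the genome did not all share a pattern. On chromosome 6, Kcna5, Kcna1 and Kcna6 follow each other within gaps of 104985 and 61945 bases, and while Kcna5 was above AG in all 3 other groups, Kcna1 exceeded 0.0759 FPKM in no library and Kcna6 was high in TIM alone. On chromosome 3, Kcna3, Kcna2 and Kcna10 follow each other, and Kcna10 reached at most 0.00512 FPKM. The letters CACGTG, the E-box core read by MYC proteins and identical on both strands, stood in the RefSeq promoter windows (GRCm38.p6) of 6 of 67 matched members (8.96%) and of 9.13% of 16389 matched genes of the table.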

How the data were processed

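Poly(A)-enriched, strand-specific libraries of 24 tissues (3 AG, 5 AGM, 8 TI, 8 TIM) had been sequenced. The authors aligned reads with HISAT2 to mm39, corrected counts for batch with ComBat-seq, normalised them by TMM in edgeR and deposited FPKM per gene. The submitters' processing notes name HISAT2 2.1.0, cutadapt 2.8, SAMtools 1.10, featureCounts 2.0.0 and edgeR 3.40, and the annotation was not given in the sources used here. This correction maps counts onto an adjusted distribution and can shift genes with few reads in 1 batch strongly. The authors' comparison columns (log2 fold change, p-value and FDR of AGM, TI and TIM against AG) were not used, and all 24 FPKM columns were. Columns name the group but not the animal, so run, zygosity and replicate number could not be assigned. Nothing used here ties p-values to more than the spread between these samples.

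Members were the Kcn genes defined in the report, sorted by symbol into 10 subfamilies. Members and gene lists were chosen with earlier results of these data known. FPKM times gene length gave whole reads for 100.0% of values (tolerance 0.1), and depth was taken as the reads outside 126 genes above 1000 FPKM. Intervals of read numbers would cover counting error only. limma 3.58.1 in R 4.3.3 (eBayes with trend, two-sided, 4 groups sharing 1 spread) was run on log2(FPKM + 1) of genes with at least 1 FPKM in 3 libraries, with Benjamini-Hochberg adjustment over all tested genes and a threshold of 0.05. The pseudocount understates the change of low genes. Scripts were tested on simulated data. Alternatives were a filter of 0.1 FPKM or none, a pseudocount of 0.1, FPKM rescaled to the depth above, fits of 2 groups, limma-voom on recovered reads, and leaving out each library, plus limma-voom with the lower filter, which was added after the data had been seen. The planned filter of 1 FPKM in every library left no member.

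Named genes were, per comparison, the 4 tested members with the largest rise and the 4 with the largest fall among those called, the member with the highest mean FPKM per subfamily, and every member above 1000 FPKM, 17 in all. Results of some genes are not reported here, although counts and sums include them. Kcna3, Kcna5 and Kcnma1, other tested members, and those described with the lower filter were named after their values had been seen. Positions of all 90 members came from GENCODE M39 on GRCm39 (mm39).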

Additional observations from a re-analysis of the deposited data

Results flagged for a closer look

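Among the 17 reported genes chosen by the naming rule, 51 groups of 5 or 8 libraries were tested for a library far from the others by Dixon's criterion, and 17 held one, in each case the highest library. Chance gives about 1 in 20 for normally distributed values. The criterion was applied here to untransformed FPKM, and every library found was the highest of its group. The count of 17 therefore cannot be set against that rate, and whether it exceeds chance was not tested.

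In AGM, the highest library stood apart for Kcng3 (571.9 FPKM, next 273), Kcnip1 (1.39, next 0.633) and Kcna6 (0.0544, next 0.0314). In TI, it stood apart for Kcnj8 (2.03 FPKM, next 0.961), Kcnn2 (0.952, next 0.400), Kcnip3 (0.912, next 0.191), Kcnk1 (0.358, next 0.174), Kcnk5 (0.121, next 0.0564), Kcna6 (0.0804, next 0.0315), Kcnk7 (0.0424, next 0.0200) and Kcne1l (0.0107, next 0). In TIM, it stood apart for Kcnn1 (4.50 FPKM, next 1.93), Kcnk1 (2.89, next 1.64), Kcnmb4 (2.11, next 1.18), Kcnn2 (1.89, next 0.951), Kcnj8 (1.39, next 0.716) and Kcng3 (0.0357, next 0). These libraries were not all different ones. In TI, the same library was the highest for Kcnj8, Kcnn2, Kcnk1, Kcnk5 and Kcna6, and another for both Kcnip3 and Kcnk7. In TIM, the same library was the highest for Kcnn1, Kcnk1, Kcnmb4 and Kcnn2.

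The difference between tumor and gland was not the same in TIM vs AGM as in TI vs AG for Kcnk1 and Kcnj8. By limma's test of the difference between these comparisons, Kcnk1 gave 1.01 (FDR 0.000599) and Kcnj8 -1.08 (FDR 0.0204). MYCN, IGF2BP1 alleles, CRE and run differ between these groups and cannot be told apart.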

How the results depend on the processing

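No paired analysis was possible because the columns of the table carry no replicate number of the labels. With all 24 libraries, 13 members were called in TI vs AG, 16 in TIM vs AG, 5 in AGM vs AG, 8 in TIM vs TI and 16 in TIM vs AGM. With the filter of 0.1 FPKM the counts were 28, 36, 12, 16 and 39, and without a filter 31, 41, 13, 14 and 42, with 68 and 90 members tested in place of 23. By limma-voom with the lower filter (added after the data had been seen), which changes the method as well, they were 32, 31, 13, 11 and 35. In AGM vs AG, a pseudocount of 0.1 gave 8 calls and a fit of only AG and AGM 12, and the cause was not tested. Rescaled FPKM and limma-voom at 1 FPKM kept every count within 1.5 times, although limma-voom took the higher calls in TIM vs AG from 13 to 8. They moved the median of all genes in AGM vs AG to -0.41 and -0.50, in TIM vs AGM to 0.31 and 0.35, in TIM vs AG to -0.15 and -0.23 and in TIM vs TI to -0.12 and -0.17. Leaving out 1 library gave 11 to 13 calls in TI vs AG, 12 to 17 in TIM vs AG, 4 to 6 in AGM vs AG, 7 to 10 in TIM vs TI and 15 to 17 in TIM vs AGM. Of the 85 differences of the named genes, 0 of 2040 values without 1 library turned direction past the threshold, 71 lost and 11 gained a call, and under the other settings 47 lost, 18 gained and 530 kept theirs. Values far below 1 FPKM rest on few reads, and 3 AG libraries limit every comparison with AG.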
